A study of Mus musculus with 6 samples.

Results

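The miRNAs of red blood cells were taken as a reading of how much blood RNA a liver sample holds, which was not tested. Here they were followed in the livers of mice with and without CCl4 treatment. The array carries 4 mouse entries named miR-144, miR-451a or miR-486, out of 1247 mouse miRNAs, and they were chosen by name alone: mmu-miR-451a, mmu-miR-144-3p, mmu-miR-144-5p and mmu-miR-486-3p. Of these 4, miR-451a and miR-144-3p were detected on all 6 arrays, as were 166 miRNAs in all. miR-144-5p was detected on 1 array and miR-486-3p on 0. The entry miR-3107-5p, which lies outside the name rule but also carries the name miR-486-5p in the annotation of the study, is given beside them.

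The livers came from male C57BL/6 mice that were 7 weeks old when treatment began. Carbon tetrachloride (CCl4) is a solvent that damages hepatocytes, and the 3 mice of the CCl4 group were given it by the intraperitoneal route at a dose of 0.6 mL/kg, with corn oil as the vehicle. The 3 control mice were given the vehicle alone. The course lasted 10 weeks in both groups, at 2 doses per week. From each liver, 100 ng of total RNA was labeled with Cy3 and hybridized to its own 1-color array. The RNA came from whole liver tissue, so that blood, leukocytes, endothelial and mesenchymal cells were measured together with hepatocytes. In such bulk RNA, fewer cells of a type and less RNA per cell cannot be told apart.

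miR-144 and miR-451a are made from neighboring genes of 1 cluster that the transcription factor GATA1 switches on as red cells mature. miR-451a is unusual in that its hairpin is sliced by Ago2 instead of Dicer, and it is among the most abundant miRNAs of mature red cells. miR-486 lies within Ank1, the gene of an ankyrin of the red cell membrane skeleton, and it is also known from muscle.

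The mature sequences show how the members differ and are given 5′ to 3′ from the RefSeq table of assembly GRCm38.p6, with the seed (bases 2 to 8) in capitals. miR-101a-3p is printed with them since it was the only other one of 1679 mature entries that shared bases 2 to 7 with miR-144-3p.
miR-451a: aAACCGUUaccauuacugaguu
miR-144-3p: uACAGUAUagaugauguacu
miR-144-5p: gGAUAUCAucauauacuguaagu
miR-101a-3p: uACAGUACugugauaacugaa
No other mature entry of the table shared bases 2 to 8 with any of these 4 sequences, and miR-451a shared bases 2 to 7 with none. The mature miR-451a took up bases 17 to 38 of its hairpin of 72 bases and so ran across the loop. In contrast, miR-144-5p and miR-144-3p stood on opposite arms of a hairpin of 66 bases, at bases 6 to 28 and 43 to 62. In the gene table Mir144 and Mir451a were neighbors on the same strand, whereas Mir451b overlapped Mir451a on the opposite strand, with a hairpin that is its reverse complement. miR-451b was detected on 0 of the 6 arrays. Mir486 and Mir3107 overlapped each other within the span of Ank1.

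The CCl4 liver of replicate 3 stood apart from the others. The scanner software detected 193, 186 and 187 miRNAs in the corn oil livers of replicates 1, 2 and 3, compared to 245, 227 and 334 in the CCl4 livers. Summed over detected miRNAs, the signal came to 177198, 169669 and 167865 in the corn oil livers, compared to 177351, 174365 and 316413 in the CCl4 livers. CCl4 replicate 3 therefore had the most detected miRNAs and the most signal, and the values that rest on it are given with and without it. By their scan positions, the CCl4 arrays lay in slide row 1 and the corn oil arrays in slide row 2, so that position and treatment cannot be told apart. All 6 arrays were scanned on the same day, and precision is limited by the 3 arrays per group.

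miR-451a, the most strongly measured of the members, varied more from liver to liver than between the treatments. Its total signal, the background-subtracted intensity summed over its probes and not normalized between arrays, was 452, 728 and 679.7 in the corn oil livers and 699, 302 and 2050.4 in the CCl4 livers of replicates 1, 2 and 3. CCl4 replicate 3 was the highest and CCl4 replicate 2 the lowest of all 6, and CCl4 replicate 1 lay among the corn oil livers, so that the groups overlapped. All 40 spots of miR-451a were well above background on every array, and the software gave its signal an error of 7.26% to 7.31%. Its probes also moved together, with a ratio of their signals between 1.58 and 1.64 on all arrays. As a share of the detected signal, miR-451a took 0.255%, 0.429% and 0.405% in the corn oil livers and 0.394%, 0.173% and 0.648% in the CCl4 livers, with the same livers at the extremes. Among the 166 miRNAs it ranked 22, 17 and 18 in the corn oil livers and 20, 34 and 22 in the CCl4 livers. By rank, CCl4 replicate 3 stood level with corn oil replicate 1.

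By total signal, miR-144-3p, the partner of miR-451a in the cluster, had the same order of livers within each group. Its total signal was 13.7, 25.8 and 19.9 in the corn oil livers and 31.0, 13.0 and 84.6 in the CCl4 livers. The highest value again belonged to CCl4 replicate 3 and the lowest to CCl4 replicate 2, and the groups overlapped. On CCl4 replicate 2, 24 of its 40 spots were well above background, compared to 33, 40 and 39 spots on the corn oil arrays and all 40 on the other CCl4 arrays. The error of its signal was 7.71% to 15.4%.

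The other arm of the hairpin, miR-144-5p, was close to the limit of the assay. It was detected only on CCl4 replicate 3, with a total signal of 8.80 and an error of 2.00, and 10 of its 40 spots there were well above background. On the other 5 arrays it had 0 spots well above background and was listed at 0.1, the value the software gives to an undetected miRNA, so no fold is given.

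For miR-486, which the array reads through several entries, only miR-3107-5p gave a signal. miR-486-3p and miR-3107-3p were detected on 0 arrays and were listed at 0.1 throughout. Of the 8 names under which miR-486 could be listed, 3 were on the array. The total signal of miR-3107-5p was 5.50, 15.6 and 14.5 in the corn oil livers and 15.8, 4.14 and 51.6 in the CCl4 livers. The order of livers within each group was that of miR-451a and miR-144-3p, and the groups overlapped. It was also the dimmest of the 166 miRNAs on CCl4 replicate 2, where 1 of its 40 spots was well above background, and on corn oil replicate 1 there were 9. On these 2 arrays its total counted only the brighter of its 2 probes, which read 5.50, 9.83 and 9.08 in the corn oil livers and 9.94, 4.14 and 32.3 in the CCl4 livers.

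In total signal, the order of livers within both groups that miR-451a showed was shared by 7 of the other 165 miRNAs. This count was made after the values were seen, and miR-144-3p and miR-3107-5p were among the 7. After quantile normalization the orders in the CCl4 group differed. Replicate 1 was then highest for miR-451a, at a log2 signal of 9.52 against 9.31 in replicate 3. For miR-144-3p and miR-3107-5p replicate 3 stayed highest, at 4.89 and 4.21. In the corn oil livers, the standard deviation (SD) of the log2 signal was 0.37 for miR-451a and 0.46 for miR-144-3p, whereas the median over the 166 miRNAs was 0.13, and 13 and 9 of the 166 miRNAs, respectively, varied more. For miR-3107-5p the SD was 0.84 in the total, which counts a varying number of probes, and 0.45 in its brighter probe, a reading added after seeing the data. In the CCl4 livers the SDs were 1.39 for miR-451a, 1.35 for miR-144-3p and 1.49 for the brighter probe of miR-3107-5p, with a median of 0.92 over all miRNAs, and 40, 43 and 29 of the 166 miRNAs varied more. On CCl4 replicate 2 that probe had 1 of 20 spots well above background, with a signal of 4.14 and an error of 1.32, so its spread is uncertain and no folds are given for it. The highest liver exceeded the lowest by 1.61-fold for miR-451a and 1.88-fold for miR-144-3p in the corn oil group, and by 6.80-fold and 6.50-fold in the CCl4 group. The wide ranges of the CCl4 group rested on replicate 3, and between the other 2 CCl4 livers the folds were 2.32 and 2.39.

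**Figure D1:**
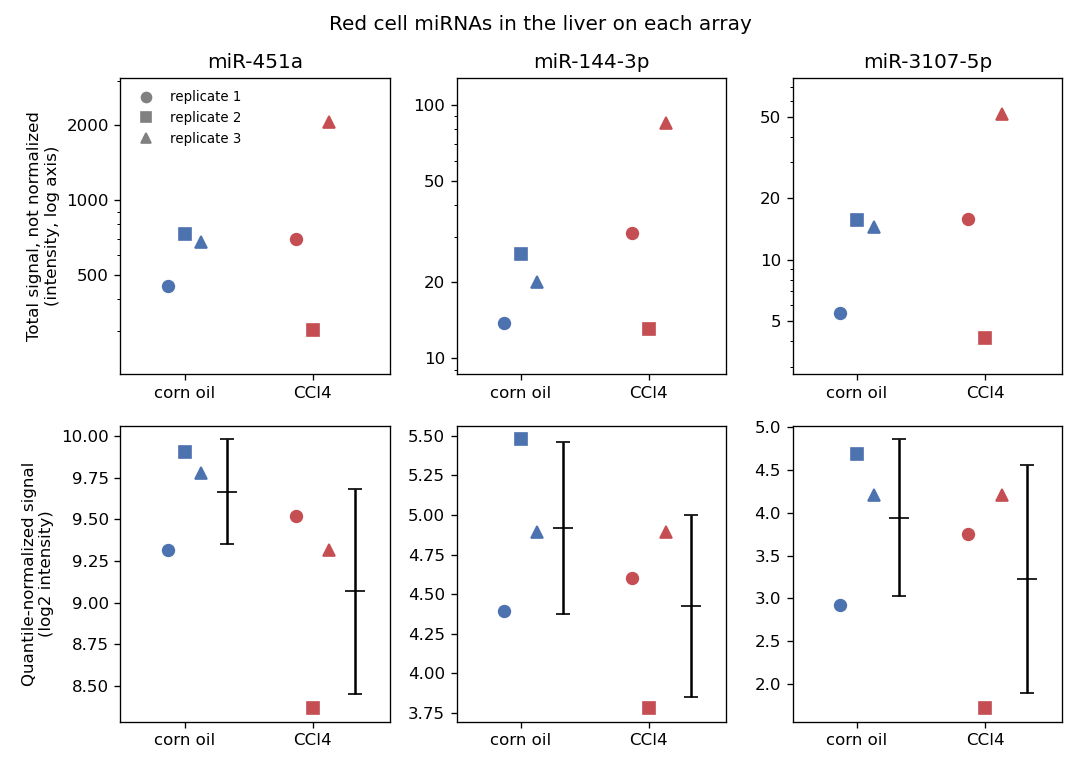
Signals of miR-451a, miR-144-3p and miR-3107-5p on each of the 6 arrays, above as total signal without normalization (intensity, log axis) and below after quantile normalization (log2 intensity). Marker shapes give the replicate number, which was not used to pair livers here, and bars in the lower panels are the mean ± SD of 3 livers. The groups overlap in every panel, with CCl4 replicate 2 the lowest liver throughout.

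The red cell miRNAs were next compared between the CCl4-treated and the control livers, as a reading of blood in the tissue. None of the 3 measured entries passed the test, and the groups overlapped for each of them. After quantile normalization of the 166 miRNAs, the log2 signal of miR-451a was 9.31, 9.91 and 9.78 in the corn oil livers and 9.52, 8.37 and 9.31 in the CCl4 livers. CCl4 replicate 3 thus came to lie level with corn oil replicate 1, and CCl4 replicate 2 remained the lowest. The group means were 9.67 ± 0.31 and 9.07 ± 0.62 (SD, n = 3 livers each), a log2 change of -0.60 (standard error 0.36, limma adjusted p = 0.31). The 95% confidence interval of this change ran from -1.50 to 0.31, and 2 of the 3 CCl4 livers lay within the range of the controls. The log2 signal of miR-144-3p was 4.39, 5.48 and 4.89 in the corn oil livers and 4.60, 3.78 and 4.89 in the CCl4 livers, again with CCl4 replicate 2 as the only liver outside the range of the controls. Its change was -0.50 (standard error 0.41, limma adjusted p = 0.45, interval -1.52 to 0.53). miR-3107-5p read 2.92, 4.69 and 4.21 in the corn oil livers and 3.75, 1.72 and 4.21 in the CCl4 livers. Its change was -0.71 (standard error 0.81, limma adjusted p = 0.57, interval -2.74 to 1.31). In the same limma fit 20 of the 166 miRNAs were called, that is 12.0%, at an adjusted p under 0.05 and a fold over 2. At an unadjusted p under 0.05, 0 of the 3 passed in the limma fit, and 48 of all 166, that is 28.9%. Values of p above the threshold do not show that the levels did not differ, since the intervals span both falls and rises.

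The change depended on how the arrays were put on a common scale. When the 75th percentile set the scale of an array, the log2 change was -0.84 for miR-451a, -0.40 for miR-144-3p and -0.68 for miR-3107-5p (limma adjusted p = 0.18, 0.53 and 0.52). With quantile normalization before the filter it was -0.60, -0.77 and -1.25. Without normalization between arrays the log2 change was 0.32 for miR-451a, 0.76 for miR-144-3p and 0.48 for miR-3107-5p, while the median change of all 166 miRNAs moved from -0.14 to 0.99. With each array scaled to its summed detected signal, the changes were -0.0019 for miR-451a, 0.44 for miR-144-3p and 0.16 for miR-3107-5p, with a median of 0.68. Relative to the median of all miRNAs, miR-451a changed by -0.46 in the main comparison and by -0.68 without normalization. For miR-144-3p the same relative values were -0.35 and -0.24, and for miR-3107-5p they were -0.57 and -0.52. The change lay below the median of all miRNAs in 19 of 19 settings for miR-451a. It did so in 18 of 18 for miR-144-3p and in 17 of 18 for miR-3107-5p. These settings share the same 6 livers and are not separate results. Without normalization, and with either scaling by a single factor per array, miR-451a had the same relative value, -0.68. The replicate block and the other limma moderation repeated the -0.46 of the main comparison. Without CCl4 replicate 3, the changes were -0.73 for miR-451a, -0.71 for miR-144-3p and -1.12 for miR-3107-5p (limma adjusted p = 0.26, 0.26 and 0.34), and none of them was called, whereas 28 of the 166 miRNAs, 16.9%, were called in that fit. Without CCl4 replicate 2, the liver with the least miR-451a, they were -0.23, -0.17 and 0.055, and relative to the median of all miRNAs -0.11, -0.053 and 0.17. With only miRNAs that had over 50% of their spots well above background on all arrays, the change of miR-144-3p was -0.052 (limma adjusted p = 0.95). Relative to the median of all miRNAs it was then -0.0010, so that almost none of its relative fall was left.

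A ratio of total signals within an array does not depend on a single scaling factor per array, although quantile normalization changes it. Its size depends on the probes and is read here only as a difference between livers, which shows unequal change and never that one miRNA did not change. By total signal, the ratio of miR-451a to its cluster partner was lower in all 3 CCl4 livers than in any control liver. The signal of miR-451a was 32.9, 28.2 and 34.1 times that of miR-144-3p in the corn oil livers and 22.5, 23.2 and 24.3 times in the CCl4 livers. The groups did not overlap, although the signals of both miRNAs spanned more than 6-fold over these livers. On the log2 scale the means were 4.98 ± 0.15 and 4.54 ± 0.054 (SD, n = 3 livers each, exact permutation test, two-sided p = 0.1), a difference of -0.44 or 1.36-fold. The value 0.1 is the smallest that 3 livers against 3 can give, and adjusted over the 5 ratios it was 0.5. With any 1 array left out the difference was between -0.52 and -0.39, and with each of the 4 pairs of single probes between -0.46 and -0.43. The error of the miR-144-3p signal reached 15.4% on CCl4 replicate 2. After quantile normalization the log2 changes were close, -0.60 for miR-451a and -0.50 for miR-144-3p. The 2 signals then lay farther apart in CCl4 replicate 1 (9.52 and 4.60) than in corn oil replicate 2 (9.91 and 5.48), so the separation was lost. The ratio was not tested on that scale. Of the ratios of miR-451a to each of the other 165 miRNAs, 41 were likewise lower in all 3 CCl4 livers without overlap, that is 24.8%, and 0 were higher, so that such a separation was not rare on these arrays.

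The ratio of miR-451a to miR-3107-5p overlapped between the groups. It was 82.2, 46.5 and 46.8 in the corn oil livers and 44.3, 72.7 and 39.7 in the CCl4 livers, highest on the 2 arrays where the total counted a single probe. The log2 difference was -0.16 (exact permutation p = 0.5, adjusted p = 0.6). Against the brighter probe alone, a choice made after seeing the data, the ratio was 82.2, 74.1 and 74.9 in the corn oil livers and 70.4, 72.7 and 63.4 in the CCl4 livers. These values did not overlap (exact permutation p = 0.1), but their difference was again -0.16. The error of the miR-3107-5p signal reached 23.6% on corn oil replicate 1 and 32.0% on CCl4 replicate 2. On these arrays 9 and 1 of the 20 spots of this probe were well above background. The separation is therefore not read as a difference between the groups.

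miR-451a was also set against miRNAs of other sources in the same livers. Its log2 ratio to miR-16-5p, which is abundant in red cells and in many other cells, was 0.74, 1.40 and 1.13 in the corn oil livers and 0.95, 0.0029 and 0.96 in the CCl4 livers. Only CCl4 replicate 2 lay below the controls, and the difference was -0.45 (exact permutation p = 0.4, adjusted p = 0.6). The ratio to miR-126-3p, an endothelial miRNA, was -0.51, 0.40 and 0.032 in the corn oil livers and -0.20, -1.42 and -0.84 in the CCl4 livers. CCl4 replicates 2 and 3 lay below all controls while replicate 1 did not, and the difference was -0.79 (exact permutation p = 0.2, adjusted p = 0.5). The ratio to miR-122-5p, the main hepatocyte miRNA, was -5.30, -4.51 and -4.75 in the corn oil livers and -4.23, -5.69 and -0.074 in the CCl4 livers. Its difference of 1.53 (exact permutation p = 0.6) rested on CCl4 replicate 3 and was -0.10 without it.

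**Figure D2:**
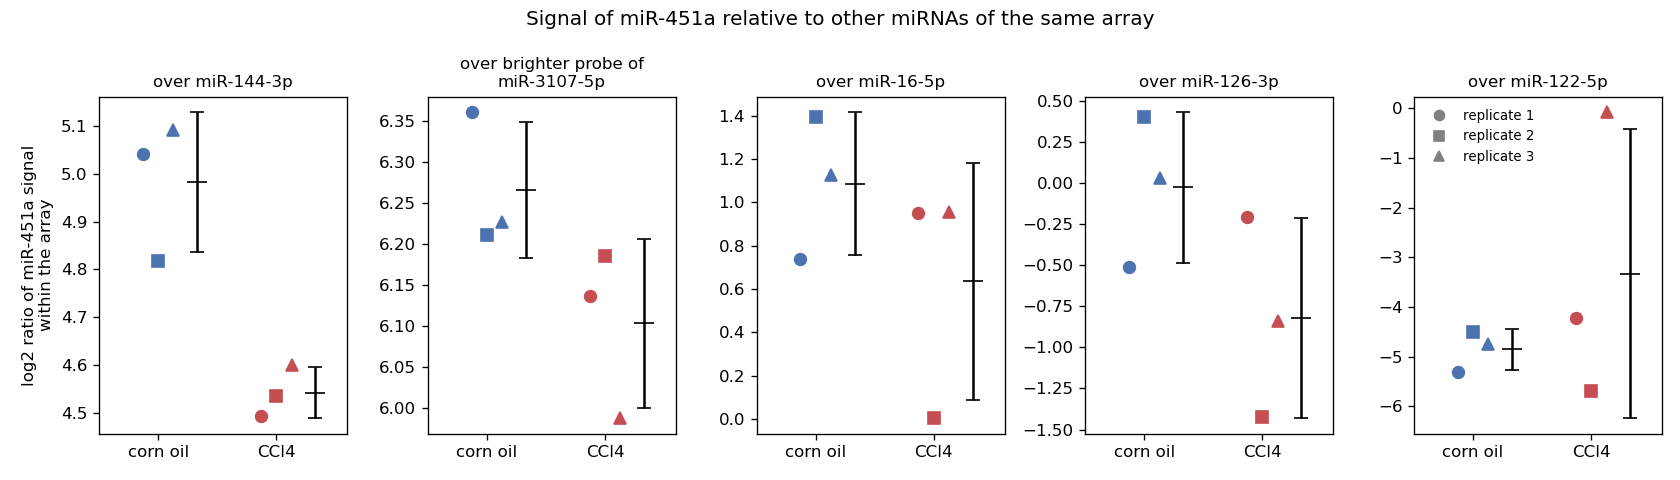
Log2 ratio of the miR-451a signal, without normalization, to that of 5 other miRNAs or probes of the same array, for 3 corn oil and 3 CCl4 livers. Marker shapes give the replicate number and bars the mean ± SD, and each panel has its own axis. The ratio to miR-144-3p lies between 4.82 and 5.09 in the corn oil livers and between 4.49 and 4.60 in the CCl4 livers, whereas the ratios to miR-16-5p, miR-126-3p and miR-122-5p overlap.

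Over the 6 livers, miR-144-3p and miR-3107-5p were among the miRNAs that followed miR-451a most closely. The 5 miRNAs with the highest Pearson correlation with miR-451a in quantile-normalized log2 signal were miR-3107-5p (0.92), miR-144-3p (0.91), miR-455-3p (0.82), miR-425-5p (0.75) and miR-25-3p (0.71), against a median of 0.074 over the 165 miRNAs. Without normalization miR-3107-5p, miR-144-3p and miR-455-3p again ranked 1, 2 and 3, whereas miR-425-5p and miR-25-3p ranked 68 and 64. By total signal, the SD of the log2 ratio to miR-451a over the 6 livers had a median of 0.77. The 3 smallest of the 165 were 0.26 for miR-144-3p, 0.43 for miR-3107-5p and 0.43 for miR-455-3p. For the brighter probe of miR-3107-5p, a reading added after seeing the data, the SD was lower, 0.12. Without CCl4 replicate 3 the SD by total signal was smallest for miR-455-3p, 0.23. It was 0.28 for miR-144-3p and 0.42 for miR-3107-5p, with a median of 0.67. For the brighter probe of miR-3107-5p it was 0.084, with that probe close to background on CCl4 replicate 2. After quantile normalization miR-455-3p was called lower in the CCl4 livers (-1.08, limma adjusted p = 0.031), but its total signals overlapped between the groups and differed by -0.13 on the log2 scale without normalization.

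For miR-144-3p, Pearson's r with miR-451a was 0.91 (exact permutation p = 0.014, n = 6 livers) and Spearman's rho was 0.84 (exact permutation p = 0.042). For miR-3107-5p they were 0.92 (exact permutation p = 0.017) and 0.84 (exact permutation p = 0.042). Adjusted over these 2 relations, p was 0.017 for both values of r and 0.042 for both values of rho. The total of miR-3107-5p counted a single probe on corn oil replicate 1 and CCl4 replicate 2, and so was lower there than with both probes. No correlation was taken for its brighter probe. Without corn oil replicate 2 and CCl4 replicate 2, the livers farthest from the median of miR-451a, r was 0.45 for miR-144-3p and 0.49 for miR-3107-5p, so that after normalization the relations rested largely on those livers. In the signals without normalization, r was 0.97 for miR-144-3p and 0.98 for miR-3107-5p, and with CCl4 replicates 2 and 3 left out these became 0.88 and 0.996. The rho of both was 0.94 there (exact permutation p = 0.017, p of r = 0.0042 and 0.0028). On that scale the median r of all 165 miRNAs with miR-451a was 0.73. Each slide row held livers of 1 group only, 3 of them, too few for a correlation within it.

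Other miRNAs known to be abundant in red cells, most of which many tissues also express, did not show the wide spread of miR-451a among the control livers. Of 11 such miRNAs on the array, 7 were detected on all 6 arrays. The SD of their log2 signal in the corn oil livers was 0.013 to 0.13, whereas that of miR-451a was 0.37. In the limma fit 0 of the 7 were called (2 at an unadjusted p under 0.05, a share close to the 28.9% of all miRNAs), and the log2 changes of these 7 were below 0 with a median of -0.37, compared to -0.14 over all 166 miRNAs. Without CCl4 replicate 3, all 7 were lower at a limma adjusted p of 0.0060 to 0.037, with a median of -0.40 and none over 2-fold. In that fit 56 of the 166 miRNAs, 33.7%, were lower at an adjusted p under 0.05. For 4 of the 7 the groups of all 6 arrays did not overlap after normalization, compared to 39.2% of all 166 miRNAs. Without normalization 0 of the 7 were below 0, and their median was 0.77 against 0.99 over all miRNAs. miR-182-5p, miR-183-5p and miR-363-3p were detected on 0 arrays. miR-96-5p was detected in 1 corn oil liver, at 4.35, and in the 3 CCl4 livers, at 12.2, 4.63 and 16.9, and was not tested. The summed signal of the list was 2431, 2364 and 2486 in the corn oil livers and 2409.95, 2384 and 6318 in the CCl4 livers, most of it from miR-22-3p. It was high in CCl4 replicate 3, and in CCl4 replicate 2, where miR-451a was below all controls, it lay within their range. The members of the list differed in CCl4 replicate 2. There miR-22-3p, at 1537, lay below the controls (1657 to 1686). Total signals of miR-16-5p and miR-107-3p lay within the range of the controls, and those of the other tested members above it. By total signal, miR-16-5p read 271, 277 and 311 in the corn oil livers and 362, 301 and 1057 in the CCl4 livers. CCl4 replicate 2 again lay within the range of the controls. After quantile normalization miR-16-5p read 8.55, 8.71 and 8.75 in the corn oil livers and 8.27, 8.27 and 8.37 in the CCl4 livers, without overlap. Its change after normalization was -0.37 (standard error 0.13, limma adjusted p = 0.12).

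By total signal, miR-101a-3p, which differs from miR-144-3p within the seed, had the same order of livers in the CCl4 group but another order in the corn oil group. Its total signal was 74.6, 64.3 and 69.6 in the corn oil livers and 69.0, 67.3 and 297 in the CCl4 livers. Corn oil replicate 2, the control with the most miR-144-3p, had the least miR-101a-3p of the 6 livers.

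The markers of the other cells in the liver moved as follows beside the red cell miRNAs, and their part in the values of miR-451a was not tested. Of 6 hepatocyte miRNAs, all on the array, 4 were detected throughout and 0 were called in the limma fit, nor did any pass an unadjusted p of 0.05. For 3 of the 4 the groups did not overlap after normalization, as for 39.2% of all 166 miRNAs. Without CCl4 replicate 3, miR-192-5p changed by -0.48 (limma adjusted p = 0.023) and miR-148a-3p by -0.57 (limma adjusted p = 0.046), while miR-194-5p (limma adjusted p = 0.12) and miR-122-5p did not pass. miR-122-5p held the same rank on all 5 of these arrays, so that quantile normalization left it no change. Over all 166 miRNAs of that fit, 33.7% were lower at a limma adjusted p under 0.05. miR-802-5p, undetected in CCl4 replicate 3 and not tested, was at 13.0, 4.63 and 4.53 in the corn oil livers and at 17.0 and 22.4 in the other CCl4 livers. The summed signal of the list was 20462, 18951 and 20852 in the corn oil livers and 14972, 17752 and 2749.8 in the CCl4 livers, with 87.3% from miR-122-5p over all 6 arrays. In total signal, CCl4 replicate 3 thus had the most miR-451a and the least hepatocyte signal. After quantile normalization its miR-451a was level with that of corn oil replicate 1, at 9.31. The median change of the 4 hepatocyte miRNAs was -1.73, or -0.52 without CCl4 replicate 3. In CCl4 replicate 2, the liver with the least miR-451a, the hepatocyte signal was the nearest of the CCl4 livers to that of the controls.

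Leukocyte miRNAs come from cells of both blood and tissue. Of 7 on the array, 4 were detected on all 6 arrays and 0 were called in the limma fit (1 at an unadjusted p under 0.05, compared to 28.9% of all miRNAs), with a median change of 0.69. Without CCl4 replicate 3, the median was 0.92, 3 of the 4 were higher at a limma adjusted p under 0.05, and 1, miR-223-3p of myeloid cells, was called. In that fit 31 of the 166 miRNAs, 18.7%, were higher at an adjusted p under 0.05, and 16.9% were called in either direction. After normalization the groups overlapped for 3 of the 4, as they did for 101 of all 166 miRNAs. Their summed signal was 118, 101 and 119 in the corn oil livers and 577, 429 and 694 in the CCl4 livers. All CCl4 livers lay above all control livers in this unnormalized sum, also CCl4 replicate 2, in which miR-451a was lowest. The same held for the endothelial and mesenchymal sums. Without normalization, however, 155 of the 166 miRNAs had a change above 0. The endothelial median on that scale, 1.07, lay close to the 0.99 of all miRNAs, and after normalization the groups overlapped for each endothelial miRNA. Within the CCl4 group the leukocyte sum was highest in replicate 3, as was the total signal of miR-451a, but miR-223-3p and miR-142-3p were highest in replicate 1. Among the controls, corn oil replicate 2, with the most miR-451a, had the lowest leukocyte sum. After normalization miR-342-3p changed by 0.85 (limma adjusted p = 0.014) and stayed under 2-fold. The change of miR-223-3p was 1.18 (limma adjusted p = 0.18), and 1.75 without CCl4 replicate 3 (limma adjusted p = 0.0018).

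The endothelial sum, from miR-126-3p and miR-126-5p, was 658, 563 and 677 in the corn oil livers and 824, 821 and 3732 in the CCl4 livers, with 0 of the 2 miRNAs called in the limma fit, also at an unadjusted p, and a median change of 0.13, or -0.084 without CCl4 replicate 3. Of 5 mesenchymal miRNAs on the array, 4 were detected throughout and 2 were called higher, miR-199a-5p (1.34, limma adjusted p = 0.032) and miR-199b-5p (2.28, limma adjusted p = 0.016), with a median change of 1.31. At an unadjusted p 3 of the 4 passed, where the shares over all miRNAs were 12.0% called and 28.9% at an unadjusted p. The mesenchymal sum was 82.0, 67.2 and 109 in the corn oil livers and 632, 255 and 1189 in the CCl4 livers, and miR-199a-3p gave 48.3% of it over all 6 arrays, the largest share. Within the CCl4 group its order of livers was that of the total signal of miR-451a, lowest in replicate 2 and highest in replicate 3. Within the corn oil group it was not, as corn oil replicate 2 had the lowest mesenchymal sum and the most miR-451a.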

How the data were processed

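Per the file headers, the authors extracted the arrays with Agilent Feature Extraction 11.0.1.1. The deposited scanner values are linear intensities from which the software had subtracted background, without normalization between arrays, with other columns of flags (detected, well above background, saturated) set to 0 or 1 by that software. The authors also deposited intensities of 111 miRNAs after quantile normalization, which include miR-451a and miR-3107-5p. Their corn oil columns 1, 2 and 3 hold the rank order of scanner arrays 2, 3 and 1, which leaves group means as they are. Which numbering is right was not settled, so the number of a corn oil replicate here is that of its scanner output, and results without a named corn oil replicate or with the replicate block rest on it.

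Control spots were left out. After log2 transformation, the total signals of the 166 miRNAs detected throughout were quantile normalized and compared in R 4.3.3 with limma 3.58.1 (lmFit, eBayes). Flag filter, normalization and test follow the methods of the study, but the deposited table holds only 111 of these 166 miRNAs. Calls needed a fold over 2 and a Benjamini-Hochberg adjusted p under 0.05. The fit was tested on simulated data, with the same spread for all miRNAs and both groups. There it recovered 92.8% of changes of 2 on the log2 scale. In the data before normalization the median SD was 0.13 in the corn oil livers and 0.92 in the CCl4 livers, and the simulation does not cover such unequal spread. Ratios, exact tests and plots were made in Python 3.11.15 (scipy 1.17.1, matplotlib 3.10.9, pandas 2.3.3, numpy 2.4.6).

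Named were all entries matching the name rule, the miR-486 entries, at most 4 miRNAs of each list (those called, then the brightest) and the 5 most correlated with miR-451a. miR-451b, miR-101a-3p and miRNAs detected on fewer than 6 arrays were named after their values were seen. The members and the lists (other red cell, hepatocyte, leukocyte, endothelial and mesenchymal miRNAs) were chosen with earlier results of these data known. Alternatives covered the normalization, signal, filter, moderation, deposited values, replicate block and each array left out.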

Additional observations from a re-analysis of the deposited data

Results flagged for a closer look

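miR-144-5p gave a signal outside the comparison of the 166 miRNAs. Its total signal was 8.80 on CCl4 replicate 3, while it was undetected on all 3 corn oil arrays and on the other CCl4 arrays. On the same array miR-144-3p, from the other arm of the hairpin, was at its highest, 84.6. The difference was not tested.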

How the results depend on the processing

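None of miR-451a, miR-144-3p and miR-3107-5p was called under any alternative, with limma adjusted p between 0.18 and 0.997. Without normalization between arrays the changes were 0.32, 0.76 and 0.48, and with scaling to the summed detected signal -0.0019 for miR-451a, 0.44 for miR-144-3p and 0.16 for miR-3107-5p, as the median of all miRNAs moved to 0.99 and 0.68. With the filter on 50% of the spots, miR-144-3p was at -0.052. With each array left out in turn, miR-451a ranged from -0.86 to -0.23, miR-144-3p from -0.77 to -0.17 and miR-3107-5p from -1.29 to 0.055, reversed only without CCl4 replicate 2. The ratio of miR-451a to miR-144-3p ranged from -0.52 to -0.39, to miR-16-5p from -0.63 to -0.13, to miR-126-3p from -1.10 to -0.50, to miR-122-5p from -0.10 (without CCl4 replicate 3) to 2.71 and to miR-3107-5p from -0.43 to 0.11. The last was 0.11 without corn oil replicate 1 and 0.0094 without CCl4 replicate 3.

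The number of miRNAs called, 20, became 32 with miRNAs detected on all arrays of 1 group, 6 without a detection filter, 7 where over 50% of the spots had to be well above background, 12 in the deposited values and 4 with normexp on the median spot signal (offset 50), a setting chosen after seeing the data, as were the values from single probes and those for lists and spread without CCl4 replicate 3. With 1 array left out it was 5 to 28. Apart from the smaller number of arrays or miRNAs in some of these fits, the cause was not tested. With the replicate number as a replicate block it was 6, and the changes of miR-451a, miR-144-3p and miR-3107-5p were -0.60, -0.50 and -0.71, none called. The ratio differences under the replicate block were those of the main comparison, with exact sign-flip p of 0.25 or more. Deviations of livers with the same number correlated at -0.18, 0.11 and 0.029, and those of livers with different numbers at -0.27 to 0.24. With the numbering of the corn oil livers unsettled, these values cannot show whether livers were paired. Among the changes, the deposited values covered miR-451a and miR-3107-5p, and the filter on 50% of the spots left out miR-3107-5p. For the ratios of miR-451a, the deposited values gave differences of -0.17 to miR-16-5p, -0.85 to miR-126-3p, 0.84 to miR-122-5p and -0.059 to miR-3107-5p. In the main comparison, from total signals, these differences were -0.45, -0.79, 1.53 and -0.16. The deposited values are quantile normalized, which changes ratios within an array, so that the measures are unlike. Signal over background limits the dim entries, with 1 to 40 of 40 spots of miR-3107-5p well above it and 0 to 10 of miR-144-5p.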
